A study of Mus musculus with 8 samples.

Results

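Klf2, Klf4, Nos3, Thbd, Piezo1, Cited2, Aqp1 and Edn1 are genes that respond to blood flow or set vascular tone, and their transcripts were followed in endothelial cells sorted from mouse embryos at E15.5 (days of embryonic development). The 8 genes were chosen by symbol from the 23337 genes of the deposited table, where Piezo1 stands under its older symbol Fam38a, and all 8 passed the filter on low values with the 13480 genes tested. The study compared embryos whose pregnant mothers received tamoxifen by gavage at E12.5 with embryos of mothers that did not. Both groups come from mice described as Cdh5-CreERT2(PAC);Rosa26fsTRAP, in which sequences of the endothelial cadherin gene Cdh5 drive a Cre recombinase that tamoxifen activates and Rosa26 holds an allele that needs Cre, while the genotype field of every sample reads wild type. A tamoxifen effect and an effect of the activated recombinase therefore cannot be told apart, and no vehicle is named for the untreated group. The labels list 4 samples per group but not which litter or embryos each came from. A p-value here therefore reflects only how far these libraries differ among themselves, and that spread may be technical. The table's header is 1 field short, and 3 libraries per group have a sure group. They are called tamoxifen_1 to tamoxifen_3 and no_tamoxifen_1 to no_tamoxifen_3 in table order.

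Endothelial cells sense the drag of flowing blood through channels and junctional proteins, and a kinase cascade ending in MEF2 transcription factors switches on KLF2 and KLF4. These factors in turn favour a quiet, dilated and anticoagulant vessel wall, with more endothelial nitric oxide synthase and thrombomodulin and less endothelin. In the embryo this programme accompanies the remodelling of vessels once the heart beats and the formation of heart valves.

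The 6 libraries held 12212472 to 19908404 reads in genes. Of these the ribosomal RNA precursor Rn45s took 29.4% to 33.7% in tamoxifen libraries and 35.1% to 38.7% without tamoxifen. Values are the authors' normalised read counts. In the sorted cells the 25 endothelial markers summed to 14100 to 33854 normalised reads in tamoxifen libraries and 20351 to 31334 without tamoxifen, and none of them was at 0. Other cell types were also present, since 15 macrophage markers summed to 51678 to 77165 normalised reads in tamoxifen libraries and 65964 to 75804 without tamoxifen. The 8 neutrophil markers summed to 55845 to 71988 normalised reads in tamoxifen libraries and 48556 to 85517 without tamoxifen. A further 12 mesenchymal markers summed to 62824 and 97330 normalised reads in tamoxifen_1 and tamoxifen_2 and to 5393 in tamoxifen_3, against 2612 to 5583 without tamoxifen. Tamoxifen_1 and tamoxifen_2 thus stood apart from tamoxifen_3, which over the tested genes correlated at 0.970 to 0.982 (Pearson's r, log2 values) with the libraries without tamoxifen and at 0.941 and 0.932 with the other 2 tamoxifen libraries. Its heat shock score (mean log2 value of 10 genes) was nevertheless that of its group, at 12.14 to 12.95 in tamoxifen libraries against 9.92 to 10.27 without tamoxifen. Results are given with and without tamoxifen_3. In such bulk samples, fewer cells of a type and less RNA per cell cannot be told apart.

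**Figure D1:**
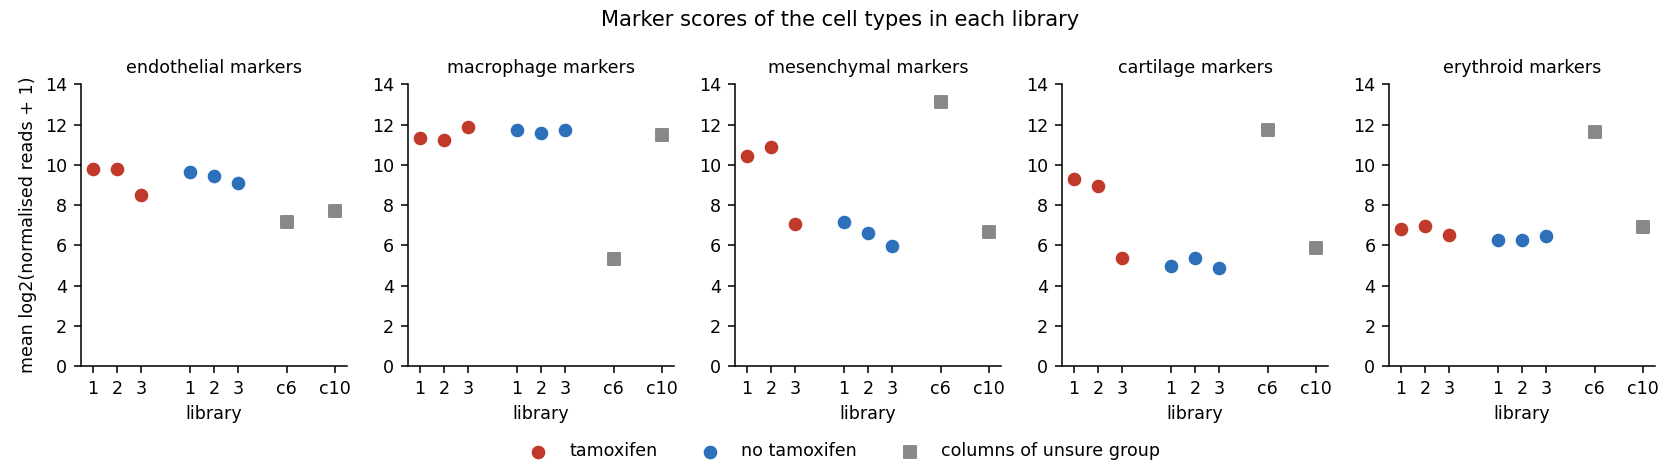
Mean log2(normalised reads + 1) of 5 marker lists in each tamoxifen library, each library without tamoxifen, and columns 6 and 10 of the table (c6 and c10), whose group is unsure. The endothelial score is lowest among the 6 libraries in tamoxifen_3 (8.51), while the mesenchymal score is 10.45 and 10.89 in tamoxifen_1 and tamoxifen_2.

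None of the 8 genes was called between tamoxifen and no tamoxifen in the limma test with Benjamini-Hochberg adjustment over all 13480 genes. That does not show that they were unchanged. The 95% interval of the fold change ran from 0.921 to 4.43 for Aqp1 and from 0.938 to 1.91 for Thbd. Of all genes tested, 0.0445% were called. The 6 called genes were the heat shock genes Hspa1b, Hspa1a, Dnajb1, Hsph1 and Bag3 and the nuclear receptor gene Nr4a1, all higher. At an unadjusted p under 0.05, limma had 0 of the 8 genes against 9.01% of all genes. On recovered reads, edgeR and DESeq2 also called 0 of 8 after adjustment, where they called 0.0371% and 2.04% of all genes. Before adjustment, Aqp1 was under 0.05 in edgeR, with 6.85% of all genes under it and higher, and Aqp1 and Thbd were in DESeq2, with 6.18%. The values of the groups overlapped for all 8 genes, while 13.9% of all genes tested had groups that did not overlap. Of the 8 log2 fold changes 7 were positive, with a median of 0.13, beside a median of -0.02 over all genes tested.

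**Figure D2:**
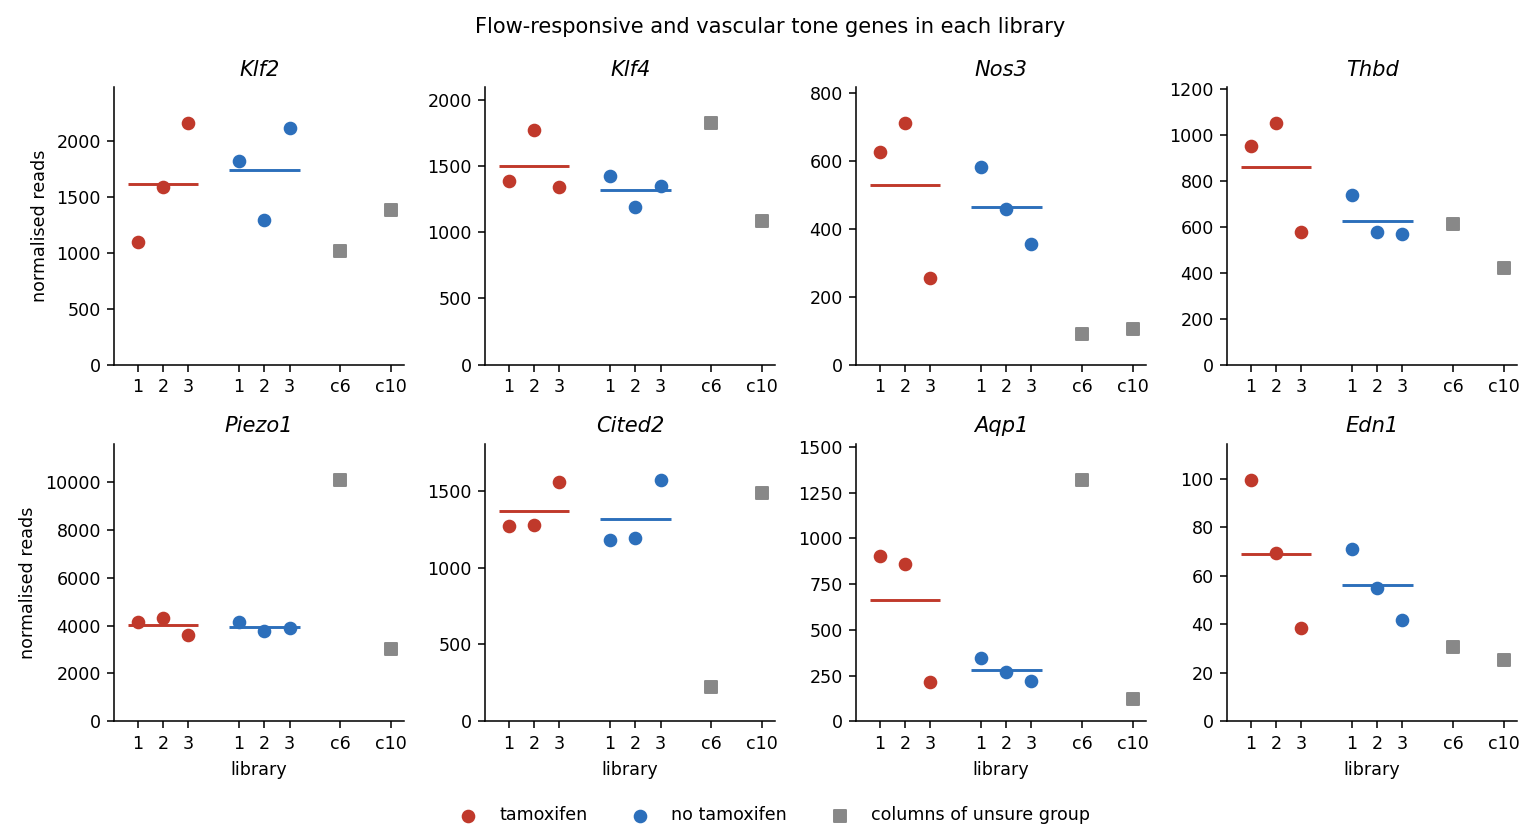
Normalised reads of each gene in each library, tamoxifen left of no tamoxifen, with lines at the group means and columns 6 and 10 (c6 and c10) to the right. The groups overlap in every panel, and Nos3, Thbd, Aqp1 and Edn1 are lowest among the tamoxifen libraries in tamoxifen_3.

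Piezo1 encodes the mechanically gated cation channel that opens when flow stretches the cell membrane. It had 4128, 4327 and 3613 normalised reads in tamoxifen_1 to tamoxifen_3, against 4137, 3774 and 3878 in no_tamoxifen_1 to no_tamoxifen_3. It was the steadiest of the 8 genes, with a highest library only 1.20 times the lowest. Its log2 fold change was 0.03 ± 0.11 (SE; limma adjusted p = 0.951), and the 95% interval of the fold change ran from 0.863 to 1.21. Piezo1 lies on chromosome 8 at 122481698 to 122551329 on the minus strand of GRCm38 and overlaps Ctu2 and Gm20388 on the other strand. The sources used here do not give whether counting used the strand, so reads from genes that overlap cannot be told apart.

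Klf2 and Klf4 encode zinc finger transcription factors that carry much of the endothelial response to laminar flow. Klf2 had 1098, 1588 and 2160 normalised reads in tamoxifen_1 to tamoxifen_3, against 1827, 1295 and 2121 in no_tamoxifen_1 to no_tamoxifen_3. The highest library of each group had nearly the same value, and the lowest value was in tamoxifen_1. The log2 fold change was -0.14 ± 0.26 (SE; limma adjusted p = 0.899), and it was the only negative one among the 8. For Klf4 the tamoxifen libraries had 1387, 1769 and 1338 normalised reads, against 1425, 1190 and 1349 without tamoxifen. Tamoxifen_2 alone lay above every library without tamoxifen. Klf4 differed by 0.17 ± 0.13 on the log2 scale (SE; limma adjusted p = 0.708). Both are also immediate early genes, and a score of 18 dissociation and immediate early genes was 11.996 to 12.37 (mean log2 value) in tamoxifen libraries, against 11.75 to 12.07 without tamoxifen; its part in these values was not tested. Klf2 spans 72319033 to 72321656 on the plus strand of chromosome 8, and Klf4 spans 55527143 to 55532466 on the minus strand of chromosome 4.

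Cited2 encodes a transcriptional coregulator that binds CBP and p300 and is induced by flow and by low oxygen. Its normalised reads were 1271, 1280 and 1559 in tamoxifen_1 to tamoxifen_3, against 1180, 1193 and 1569 in no_tamoxifen_1 to no_tamoxifen_3. The third library of each group was the highest and the other 2 lay close together. The log2 fold change was 0.07 ± 0.14 (SE; limma adjusted p = 0.912). Cited2 lies on chromosome 10 at 17723218 to 17725674 on the plus strand.

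Nos3 encodes endothelial nitric oxide synthase, which makes the vasodilator nitric oxide. It had 626, 712 and 255 normalised reads in tamoxifen_1 to tamoxifen_3, against 582, 459 and 355 in no_tamoxifen_1 to no_tamoxifen_3. The highest and the lowest of the 6 values were both tamoxifen libraries. Nos3 had a wide interval, with a log2 fold change of 0.09 ± 0.37 (SE; limma adjusted p = 0.963) and a 95% interval of -0.75 to 0.92. It spans 24364810 to 24384474 on chromosome 5, and Atg9b and Gm15587 overlap it on the opposite strand.

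Thbd encodes thrombomodulin, the endothelial receptor that turns thrombin towards activation of the anticoagulant protein C. It had 954, 1050 and 577 normalised reads in tamoxifen_1 to tamoxifen_3, against 737, 578 and 568 in no_tamoxifen_1 to no_tamoxifen_3. 2 of the 3 tamoxifen values lay above every library without tamoxifen, and tamoxifen_3 lay among them. The log2 fold change was 0.42 ± 0.22 (SE; limma adjusted p = 0.600), with a 95% interval of -0.09 to 0.93. An exact two-sided permutation test over the 6 libraries gave p = 0.3 for Thbd, where the smallest p that 3 against 3 libraries can reach is 0.1. Thbd is a single-exon gene on chromosome 2 at 148404466 to 148408188, on the minus strand.

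Edn1 encodes the precursor of endothelin-1, a strong vasoconstrictor. It was the least abundant, at 99.4, 69.4 and 38.6 normalised reads in tamoxifen_1 to tamoxifen_3, against 71.1, 55.1 and 41.9 in no_tamoxifen_1 to no_tamoxifen_3. Both groups covered nearly the same range except for tamoxifen_1. Its log2 fold change was 0.23 ± 0.37 (SE; limma adjusted p = 0.882). Each Edn1 value rests on 51 to 97 recovered reads, which leaves a 95% Poisson interval of up to 28.5% on either side for counting error alone. Edn1 spans 42301476 to 42307990 on the plus strand of chromosome 13 and overlaps the antisense gene Gm47118.

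Aqp1 encodes a water channel of endothelium that red blood cells carry too. It had 906 and 862 normalised reads in tamoxifen_1 and tamoxifen_2 but 217 in tamoxifen_3, against 346, 271 and 218 in no_tamoxifen_1 to no_tamoxifen_3. Tamoxifen_3 thus had slightly fewer Aqp1 reads than any library without tamoxifen, while the other 2 tamoxifen libraries had more than 2 times the highest of them. The log2 fold change was 1.01 ± 0.50 (SE; limma adjusted p = 0.577), the largest of the 8, with a 95% interval of -0.12 to 2.15. In the same libraries the mesenchymal markers, 12 of 12 with a positive log2 fold change and 0 called, were highest in tamoxifen_1 and tamoxifen_2. The 11 erythroid markers found summed to 2626, 2702 and 1881 normalised reads in tamoxifen_1 to tamoxifen_3, with Hba-a1 and Hba-a2 listed at 0 in all 6. In no_tamoxifen_1 to no_tamoxifen_3 the sums were 1796, 1945 and 1674. The erythroid score was 6.79, 6.97 and 6.53 with tamoxifen, against 6.28, 6.27 and 6.46 without it. Of the 8 erythroid markers tested, 4 had a positive and 4 a negative log2 fold change. The part of either cell type in the Aqp1 values was not tested. Aqp1 spans 55336432 to 55348555 on the plus strand of chromosome 6.

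The sequence before the start site is shown for Klf2, Aqp1 and Edn1, since Klf2 was ordered differently across libraries from Aqp1 and Edn1. Each is 250 bases long and ends at the base before the RefSeq transcription start on GRCm38.p6, written 5′ to 3′ on the gene's plus strand. Capitals mark matches to CACCC, a short form of the KLF site, to GAGACC, a proposed shear stress response element, and to CTA followed after 4 bases by TAG, the core of a MEF2 site, each searched on both strands.
Klf2, chr8:72318812-72319061: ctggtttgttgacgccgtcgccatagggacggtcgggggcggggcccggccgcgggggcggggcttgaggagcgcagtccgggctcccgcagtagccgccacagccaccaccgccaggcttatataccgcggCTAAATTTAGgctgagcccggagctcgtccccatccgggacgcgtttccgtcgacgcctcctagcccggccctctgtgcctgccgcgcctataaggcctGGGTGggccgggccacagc
Aqp1, chr6:55336049-55336298: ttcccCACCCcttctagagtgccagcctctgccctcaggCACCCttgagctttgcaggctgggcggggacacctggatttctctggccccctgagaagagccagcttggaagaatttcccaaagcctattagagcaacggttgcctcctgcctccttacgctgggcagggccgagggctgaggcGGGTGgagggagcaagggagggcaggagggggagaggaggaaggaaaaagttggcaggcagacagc
Edn1, chr13:42301226-42301475: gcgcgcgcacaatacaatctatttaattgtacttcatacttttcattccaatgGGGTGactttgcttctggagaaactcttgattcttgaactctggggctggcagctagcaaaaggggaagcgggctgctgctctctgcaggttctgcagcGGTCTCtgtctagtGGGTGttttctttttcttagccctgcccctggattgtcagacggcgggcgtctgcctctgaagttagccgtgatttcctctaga
The Klf2 window held 1 MEF2-type match, CTAAATTTAG, beginning 118 bases before the start. Such a match occurred in 3.20% of 32851 mouse promoter windows of that length. Aqp1 held 3 matches to CACCC, Edn1 held 2 and Klf2 held 1, a motif found in 52.0% of the windows. Edn1 also held 1 match to GAGACC on the reverse strand, 98 bases before its start, and 13.7% of windows hold one. The Klf4 window, not shown, held 0 matches to CACCC, 0 to GAGACC and 0 to the MEF2-type site. The windows of Piezo1 and Cited2, also not shown, each held 1 match to CACCC and 1 to GAGACC. Neither motif was thus particular to the genes shown. None of these matches overlapped another, and a match is a description of letters, not of binding.

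The calls for Aqp1 and Thbd depended on whether tamoxifen_3 was included. Without it, Aqp1 rose by 1.69 ± 0.18 on the log2 scale (SE; limma adjusted p = 8.52e-06, range over the alternatives 8.52e-06 to 0.999994) and Thbd rose by 0.68 ± 0.14 (limma adjusted p = 0.00473, range 0.00473 to 0.999994). These are 2 of 8 genes, in a comparison in which 7.22% of all genes were called higher and 10.7% were called in either direction. Nos3 was at 0.55 ± 0.18 (limma adjusted p = 0.0623, range 0.0623 to 0.999994) and Edn1 at 0.59 ± 0.30 (limma adjusted p = 0.238) in that comparison, and Klf2 at -0.37 ± 0.19 (limma adjusted p = 0.232). When tamoxifen_3 stood alone for its group, limma called 0 of the 8 genes, beside 0.675% of all genes, and 5 of 8 had a negative value, among them Nos3 at -0.84 ± 0.25 (limma adjusted p = 0.159) and Aqp1 at -0.33 ± 0.26 (limma adjusted p = 0.786). In that comparison the lone library is assumed to vary like the others.

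**Figure D3:**
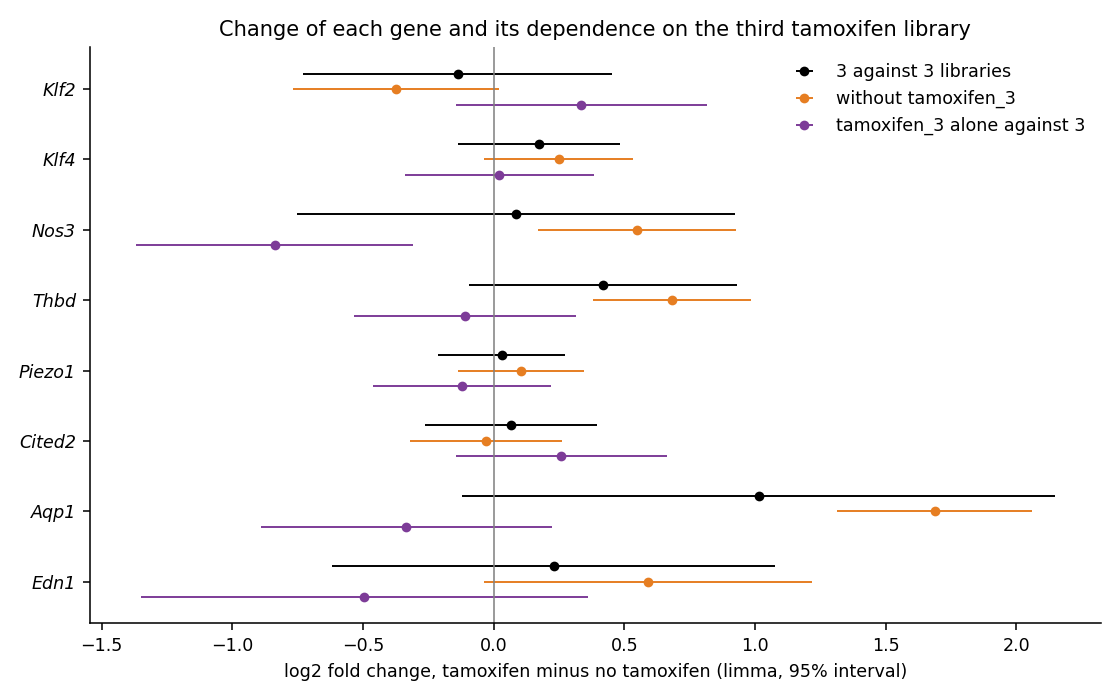
Log2 fold change of each gene, tamoxifen minus no tamoxifen, with 95% intervals from limma, for all 6 libraries, without tamoxifen_3, and for tamoxifen_3 alone against the libraries without tamoxifen. Aqp1 is at 1.69 without tamoxifen_3 and at -0.33 with tamoxifen_3 alone.

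Nos3, Thbd, Edn1 and Aqp1 were low in the libraries where endothelial markers were low, while Klf2 and Cited2 were high there. Nos3, Thbd, Edn1 and Aqp1 each had their lowest value of both groups in the third library, where the endothelial score was also lowest, at 8.51 in tamoxifen_3 and 9.08 in no_tamoxifen_3. Klf2 and Cited2 instead had their highest values there. The macrophage score was 11.31, 11.24 and 11.86 in tamoxifen_1 to tamoxifen_3, against 11.74, 11.56 and 11.74 in no_tamoxifen_1 to no_tamoxifen_3. In the same order the neutrophil score was 10.96, 10.73 and 11.95, against 10.73, 11.34 and 11.62, highest in the third library of each group. The part of the cell mixture in these values was not tested. Relative to the score of the 25 endothelial markers, the spread of Nos3 over the 6 libraries was 0.11 (SD, log2), against 0.56 for its plain values. For Edn1 it was 0.24 against 0.51, for Thbd 0.32 against 0.39 and for Aqp1 0.64 against 0.95. The relative spread was larger than the plain one for Piezo1 (0.42 against 0.10), Klf2 (0.82 against 0.39), Klf4 (0.45 against 0.19) and Cited2 (0.66 against 0.18). Over the 13455 tested genes that are not endothelial markers, 14.3% had a smaller relative than plain spread, beside 4 of the 8 genes.

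On this relative scale Aqp1 and Thbd were above every library without tamoxifen in 3 of 3 tamoxifen libraries, tamoxifen_3 included. Aqp1 stood at 0.04, -0.04 and -0.74 (log2 difference from the endothelial score) in tamoxifen_1 to tamoxifen_3, against -1.21, -1.36 and -1.31 in no_tamoxifen_1 to no_tamoxifen_3. Thbd stood at 0.12, 0.25 and 0.67 in the tamoxifen libraries, against -0.12, -0.27 and 0.07 without tamoxifen. Columns 6 and 10, whose group is unsure, stood at 3.18 and -0.75 for Aqp1 and at 2.08 and 1.03 for Thbd. Column 6, without tamoxifen under one placement of the header, thus lay above all 6 libraries for both genes. Among all genes 5.75% were higher with no overlap on this scale, beside 2 of these 8, and 0.528% were lower. On plain values these shares were 6.24% higher and 7.62% lower, so the scale is uneven between directions. The score subtracted is lowest in tamoxifen_3, which raises there any gene that does not follow the endothelial markers. Nos3 was at -0.49, -0.31 and -0.51 in tamoxifen libraries, against -0.46, -0.60 and -0.61 without tamoxifen, and the groups overlapped. With all genes rescaled in this way, limma gave a log2 fold change of 1.05 ± 0.54 for Aqp1 and 0.45 ± 0.56 for Thbd (SE; limma adjusted p = 0.999994 for each), with 0 of 8 and 1.32% of all genes called. Per read of Cdh5, 3 of the 8 genes (Aqp1, Edn1 and Nos3) were higher without overlap, beside 6.04% of all genes higher and 0.341% lower. The margin was narrow for Nos3, at 0.1204 in tamoxifen_1 against 0.1203 in no_tamoxifen_3, and for Edn1, at 0.0145 in tamoxifen_2 against 0.0142 in no_tamoxifen_3.

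**Figure D4:**
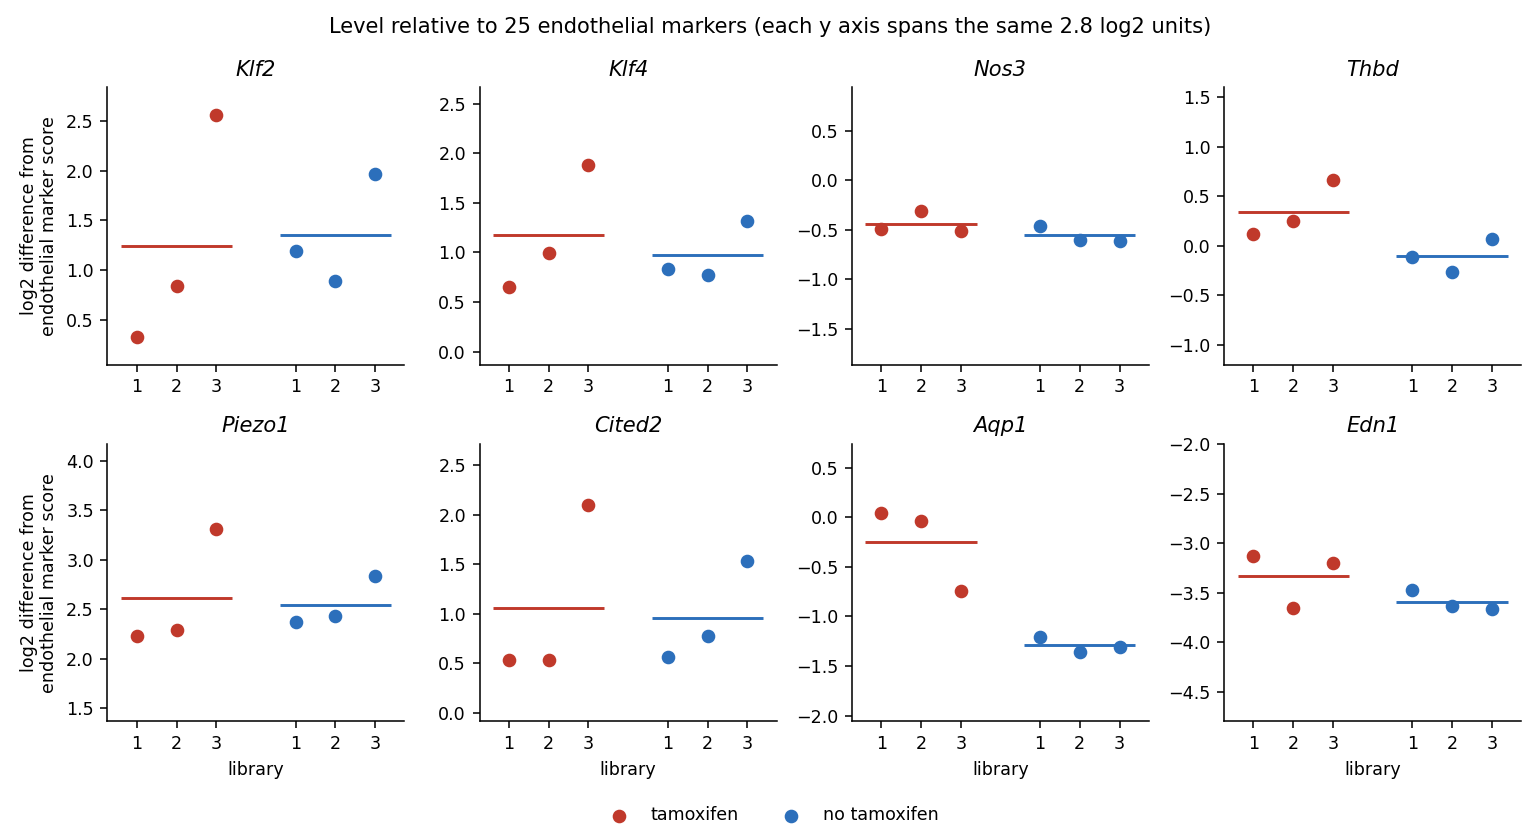
Log2 value of each gene minus the mean log2 value of 25 endothelial markers in the same library, tamoxifen left of no tamoxifen, with lines at the group means. Aqp1 and Thbd are higher in the 3 tamoxifen libraries than in the libraries without tamoxifen, and Nos3 lies between -0.61 and -0.31 in all 6.

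Levels per kilobase of annotated exon put the transcription factors on top and endothelin at the bottom. In tamoxifen libraries Klf2 averaged 875 ± 288 normalised reads per kb, Cited2 558 ± 67, Klf4 491 ± 77 and Piezo1 405 ± 37 (SD, n = 3). In the same libraries Aqp1 averaged 252 ± 147, Thbd 231 ± 67, Nos3 128 ± 59 and Edn1 32.3 ± 14.2 normalised reads per kb. Neighbours in this order overlapped except Klf4 and Piezo1, Piezo1 and Aqp1, and Nos3 and Edn1. Without tamoxifen the order was Klf2 at 946 ± 227, Cited2 at 535 ± 90, Klf4 at 433 ± 39 and Piezo1 at 396 ± 19 normalised reads per kb (SD, n = 3). Below them came Thbd at 169 ± 25, Nos3 at 113 ± 28, Aqp1 at 106 ± 25 and Edn1 at 26.2 ± 6.9 normalised reads per kb. There, neighbouring genes overlapped only for Klf4 with Piezo1 and for Nos3 with Aqp1.

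Genes with the most similar pattern were sought among 10246 others by the root mean square difference of centred log2 values over the 6 libraries. Nos3 was followed most closely by Tspan9 (0.03), Gpr124 (0.04) and Col4a2 (0.05), against a median of 0.57 over all genes. Aqp1 was followed by Sema3f (0.08), Ltbp1 (0.10) and Loxl2 (0.12), with a median of 0.92. The nearest to Klf2 were Dnase2a (0.10), Slc46a1 (0.11) and Dynlt1a (0.11), and those nearest to Klf4 were Timp2 (0.03), Iffo1 (0.06) and Kank2 (0.06). Thbd was closest to Rab11fip3 (0.04), Piezo1 to Zbtb39 (0.03), Cited2 to H6pd (0.02) and Edn1 to Cdc42bpa (0.12). Among pairs of the 8, Klf4 with Piezo1 (0.12), Piezo1 with Cited2 (0.23) and Nos3 with Edn1 (0.24) were the 3 closest. Klf2 with Aqp1 (1.14) was the farthest. The measure also brings together genes that vary little, such as Piezo1 and Cited2 (SD 0.10 and 0.18 on the log2 scale over the 6 libraries).

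The values of columns 6 and 10 of the table are given apart because their group depends on how the short header is placed. Column 6, without tamoxifen under one placement and with it under the other, had 10076 normalised reads of Piezo1, 1821 of Klf4 and 1318 of Aqp1, above all 6 libraries. Its 1017 normalised reads of Klf2, 226 of Cited2, 89.5 of Nos3 and 30.5 of Edn1 lay below all 6, and its 612 of Thbd lay within their range. The same column had a macrophage score of 5.33, against 11.24 to 11.86 in tamoxifen libraries and 11.56 to 11.74 without tamoxifen, and an erythroid score of 11.64, against 6.27 to 6.97 in the 6 libraries. Its mesenchymal score was 13.13, against 5.96 to 10.89 in the 6 libraries, and its cartilage score 11.73, against 4.86 to 9.29. Its endothelial score was 7.18, against 8.51 to 9.79 in the 6 libraries. Column 10, with tamoxifen or without a name, had 3009 normalised reads of Piezo1, 1088 of Klf4, 422 of Thbd, 122 of Aqp1, 104 of Nos3 and 25.2 of Edn1, each below all 6 libraries, at an endothelial score of 7.70. Its Klf2 (1385) and Cited2 (1487) lay within the range of the 6. The share of all genes outside the 6 libraries in either column was not computed, so these places cannot be read as particular to the 8 genes.

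Other genes of flow sensing and vascular tone were taken from 11 lists of 145 genes, of which 118 were tested. In limma 0 of 118 were called, beside 0.0445% of all genes, and before adjustment 13 with a positive and 4 with a negative fold change were under 0.05, a threshold that 9.01% of all genes passed in either direction. edgeR called 0 of them. DESeq2 called 5 higher (among them Agtr2, Gja5, Npr2 and Serpine2) and 2 lower (Ednrb and Txnrd1), where it called 2.04% of all genes. Their median log2 fold change was 0.04, and 21 had groups that did not overlap, beside 13.9% of all genes. Without tamoxifen_3, limma called 24 of the 118 higher and 5 lower, beside 10.7% of all genes. Of the genes described here, Ednrb, Gnaq and Txnrd1 were then called lower, and Agtr2, Aqp11, Gja5, Klf14, Ptgs2 and Serpine2 higher. With tamoxifen_3 alone it called 5, among them Flt4, Kdr, Nfe2l2 and Piezo2, beside 0.675%.

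**Figure D5:**
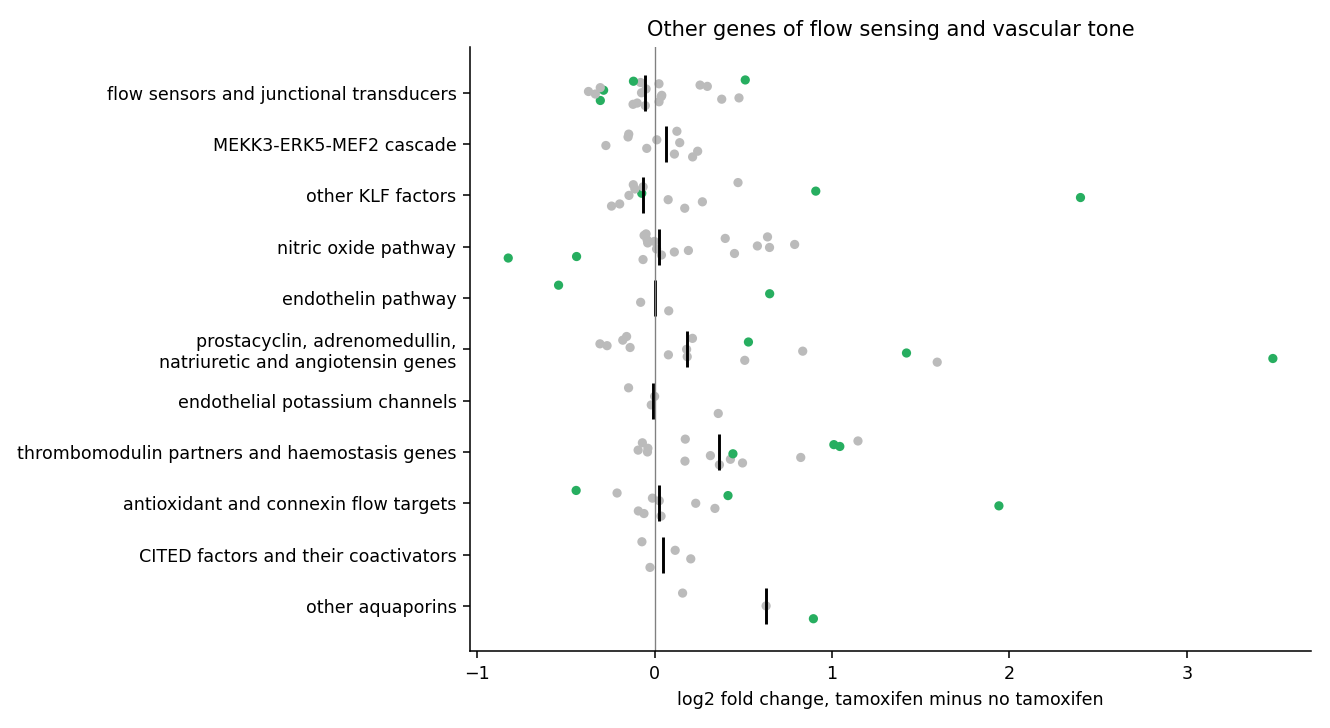
Log2 fold change, tamoxifen minus no tamoxifen, of each tested gene in 11 lists, with a black line at each list's median and green points where the 3 tamoxifen libraries do not overlap the 3 without tamoxifen. The vertical place within a list only separates the points, and most genes lie between -0.5 and 0.5.

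In the endothelin pathway the receptor genes stood on opposite sides. Ednrb, the receptor through which endothelial cells release vasodilators, had 1368, 1494 and 1797 normalised reads in tamoxifen_1 to tamoxifen_3, against 2560, 2218 and 1999 in no_tamoxifen_1 to no_tamoxifen_3. Its log2 fold change was -0.54 ± 0.14 (SE; limma adjusted p = 0.459). Ednra, the contractile receptor of smooth muscle, had 141, 175 and 191 normalised reads with tamoxifen, against 135, 83.2 and 108 without it, a log2 fold change of 0.65 ± 0.22 (SE; limma adjusted p = 0.475). The groups did not overlap for either receptor, as for 13.9% of all genes tested, and with all 6 libraries neither passed the threshold in limma. Without tamoxifen_3, Ednrb fell by 0.65 ± 0.13 on the log2 scale (SE; limma adjusted p = 0.00291, range over the alternatives 0.00291 to 0.999994). Edn2 was at 0 in all 6 libraries.

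Among partners of thrombomodulin and other haemostasis genes, 11 of 15 tested had a positive log2 fold change, with a median of 0.36 and 0 called. Serpine2, which encodes a protease inhibitor, was at 1.01 ± 0.27 (SE; limma adjusted p = 0.460), with 315, 307 and 165 normalised reads in tamoxifen libraries, against 128, 144 and 105 without tamoxifen. Its 3 tamoxifen values lay above all 3 without tamoxifen, as for 6.24% of all genes tested, with tamoxifen_3 the lowest of them.

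The flow-sensing genes showed small differences. Of 21 sensors and junctional transducers, 9 were positive and 12 negative, with a median of -0.05 and 0 called. The G protein gene Gnaq was at -0.31 ± 0.10 (SE; limma adjusted p = 0.475) and the cation channel gene Trpv4 at 0.51 ± 0.19 (limma adjusted p = 0.505). The 10 tested genes of the MEKK3-ERK5-MEF2 cascade, which lies between the sensors and Klf2, ran from -0.28 for Map3k2 to 0.24, with 0 called and a median of 0.06. Of 13 other KLF factors 0 were called, with Klf5 at 0.91 ± 0.30 (limma adjusted p = 0.475) and the low-level Klf14 at 2.40 ± 0.84 (limma adjusted p = 0.475). Klf14 had 29.7 and 31.4 normalised reads in tamoxifen_1 and tamoxifen_2 and 4.91 in tamoxifen_3, against 0.761 to 4.34 without tamoxifen.

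The remaining lists held 0 called genes in limma as well. The nitric oxide pathway had a median of 0.02 over 18 genes, with the arginine-consuming enzymes Arg1 at -0.83 ± 0.33 (SE; limma adjusted p = 0.519) and Arg2 at -0.44 ± 0.23 (limma adjusted p = 0.599). Among prostacyclin, adrenomedullin, natriuretic peptide and angiotensin genes, with a median of 0.18 over 15, the prostaglandin synthase Ptgs2 was at 0.53 ± 0.15 and the angiotensin receptor Agtr2 at 3.49 ± 1.01 (SE; limma adjusted p = 0.462 for each). Agtr2 had 321 and 327 normalised reads in tamoxifen_1 and tamoxifen_2 and 18.9 in tamoxifen_3, against 5.33 to 17.4 without tamoxifen, so it was high in the same libraries as the mesenchymal markers. The arterial gap junction gene Gja5 was at 1.94 ± 0.42 and the thioredoxin reductase gene Txnrd1 at -0.44 ± 0.11 (SE; limma adjusted p = 0.348 and 0.460), with a list median of 0.03 over 11. Gja5 passed the threshold in limma without tamoxifen_3 (2.37 ± 0.31, limma adjusted p = 9.64e-05) and after scaling to endothelial markers (limma adjusted p = 0.0185), and its adjusted p ranged up to 0.962 over the alternatives. Endothelial potassium channels had a median of -0.01 over 4, with Kcnj2 at 0.36 ± 0.28 (limma adjusted p = 0.712) and Kcnn4 at -0.15 ± 0.18 (limma adjusted p = 0.836). The CITED partners had a median of 0.04 over 4, with the coactivators Crebbp at 0.20 ± 0.14 (limma adjusted p = 0.665) and Ep300 at 0.12 ± 0.12 (limma adjusted p = 0.784). Just 3 other aquaporins were tested, among them Aqp11 at 0.89 ± 0.32 (limma adjusted p = 0.492) and Aqp3 at 0.63 ± 0.56 (limma adjusted p = 0.753).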

How the data were processed

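RNA of sorted cells was depleted of ribosomal RNA before library preparation, per the labels' protocols. The deposited signal is normalised read counts per gene symbol. Tools named in the submitters' processing notes, without their roles, are STAR, HTSeq 0.11.2 and DESeq2, and the builds are hg38 and mm10. Columns 3 to 5 (no tamoxifen) and 7 to 9 (tamoxifen) carry the same group wherever the short header is placed. Columns 6 and 10 entered only alternatives, and 1 value column was not used. In each of columns 3 to 10, 100% of values were whole multiples of 1 read within 0.001 reads, which gave the depths.

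Genes with a mean of at least 10 over the 6 libraries entered limma 3.58.1 (R 4.3.3). Its input was log2(value + 1), it used a trended prior variance and a single group term, and genes with a Benjamini-Hochberg adjusted p under 0.05 were called. Fold changes on that scale understate those of low genes. edgeR 4.0.16, DESeq2 1.42.0, another pseudocount, no filter, libraries left out, a replicate block, other header placements and scaling to endothelial markers were alternatives. The limma step was checked on simulated counts. The 8 genes and the lists were chosen with earlier results of these data known. In each pathway list the genes past the threshold or, with none, the 2 of lowest p are named. Npr2, Flt4, Kdr, Nfe2l2 and Piezo2 were named after their values were seen. The values of 1 gene that the rule names are not reported here. Of 292 list symbols, 291 were found, 6 by an older symbol. A list score is the mean log2(value + 1) over its tested genes. Exon lengths and positions are from GENCODE M21 (GRCm38), and promoters from RefSeq (GRCm38.p6), which gave 6 of the 8 genes.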

Additional observations from a re-analysis of the deposited data

Results flagged for a closer look

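Column 6, which enters no main comparison, held 3 of the 8 genes above every library without tamoxifen and 4 below all 6 libraries. Over the tested genes this column correlated with the 6 libraries at 0.60 to 0.72 (Pearson's r, log2 values), against 0.93 to 0.98 among those libraries. The share of all genes displaced in this column was not computed, so the counts cannot be read as particular to these genes. Piezo1 had 10076 normalised reads there, against at most 4137 in the 3 libraries without tamoxifen. Aqp1 had 1318 normalised reads, against at most 346 without tamoxifen. Klf4 had 1821 normalised reads, against at most 1425 without tamoxifen. Column 6 is itself a library without tamoxifen under one placement of the header.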

How the results depend on the processing

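Over 16 alternatives, the 8 genes gave 128 values, of which 101 kept direction and side of the threshold, 2 newly passed it and 25 changed sign. The cause of these changes was not tested. With single libraries left out, the log2 fold changes ran from -0.37 to 0.11 for Klf2, -0.19 to 0.55 for Nos3, -0.024 to 0.11 for Piezo1, -0.030 to 0.20 for Cited2, -0.080 to 0.59 for Edn1, 0.048 to 0.25 for Klf4 (lowest without tamoxifen_2), 0.25 to 0.68 for Thbd and 0.66 to 1.69 for Aqp1. With tamoxifen_3 alone they were 0.34 for Klf2, -0.84 for Nos3, -0.11 for Thbd, -0.12 for Piezo1, -0.33 for Aqp1 and -0.49 for Edn1, with Kcnj2 at -0.092. With the names over the last 8 value columns they were 0.0078 for Klf2, -0.055 for Klf4, -0.41 for Piezo1 and -0.094 for Aqp1, with Trpv4 at -0.11, Hdac4 at -0.073, Ednrb at 0.19, Crebbp at -0.014 and Aqp3 at -0.66. With the names over the first 8 they were -0.52 for Nos3, -0.58 for Cited2 and -0.034 for Edn1, with Ptgs2 at -0.43, Kcnj2 at -0.21 and Kcnn4 at 0.82. With column 10 added they were -0.46 for Nos3, -0.073 for Piezo1 and -0.10 for Edn1.

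The count of genes called, 6 with all 6 libraries, was 2 to 1442 with single libraries left out (1442 without tamoxifen_3; 2 without no_tamoxifen_2 or no_tamoxifen_3; 3 without no_tamoxifen_1), 275 in DESeq2, 91 with tamoxifen_3 alone, 178 scaled to endothelial markers and 0 with the names over the first 8 value columns, where limma gave 402 positive and 153 negative genes under 0.05 before adjustment. With the number in table order as a replicate block it was 21, and none of the 8 genes passed (Aqp1 at limma adjusted p = 0.232), while Gja5 did (limma adjusted p = 0.0292). Deviations of same-numbered libraries correlated at 0.20, 0.04 and 0.34 across genes, so the numbers were not taken as pairs, and not every library correlated best with its own number. Depth limits Edn1 most, as counting error covers up to 28.5% of its values.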

Other observations

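Ratios between the 8 genes within a library were compared after their values had been seen, as 5 ratios with exact two-sided permutation tests whose smallest p is 0.1. The ratio of Edn1 to Nos3, the vasoconstrictor precursor over the vasodilator enzyme, was 0.159, 0.0975 and 0.152 in tamoxifen_1 to tamoxifen_3, against 0.122, 0.120 and 0.118 in no_tamoxifen_1 to no_tamoxifen_3 (exact permutation p = 0.4, adjusted p = 0.5). It lay between 0.118 and 0.122 without tamoxifen and on both sides of that range with it. Each Edn1 value rests on only 51 to 97 reads, with a Poisson interval of up to 28.5% on either side. The values therefore cannot show whether the ratio of Edn1 to Nos3 was steadier in either group. The ratio of Klf2 to Klf4 was 0.792, 0.897 and 1.61 with tamoxifen, against 1.28, 1.09 and 1.57 without it (exact permutation p = 0.5, adjusted p = 0.5). Thbd over Nos3 was 1.52, 1.48 and 2.27 with tamoxifen, against 1.27, 1.26 and 1.60 without it (exact permutation p = 0.3, adjusted p = 0.5).

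Set against the endothelial cadherin gene Cdh5, Aqp1 was at 0.174, 0.180 and 0.1096 in tamoxifen_1 to tamoxifen_3, against 0.0690, 0.0633 and 0.0738 in no_tamoxifen_1 to no_tamoxifen_3 (exact permutation p = 0.1, adjusted p = 0.25). The groups did not overlap, with tamoxifen_3 also above, as for 6.04% of all genes per Cdh5 read. Nos3 per Cdh5 read was 0.120, 0.149 and 0.129 with tamoxifen, against 0.116, 0.107 and 0.120 without it (exact permutation p = 0.1, adjusted p = 0.25), so the nearest values of the groups were equal to 3 digits. In column 6, without tamoxifen under one placement of the header, Aqp1 per Cdh5 read was 1.77, above all 6 libraries. Nos3 per Cdh5 read was 0.120 in that column. In column 10, Aqp1 per Cdh5 read was 0.111 and Nos3 per Cdh5 read 0.0951.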
